A study of Homo sapiens with 6 samples.

Results

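The 10 genes described here encode inflammatory cytokines and chemokines, namely IL6, CXCL8, CXCL1, CXCL2, CXCL3, CCL2, CSF2, LIF, IL1A and IL1B. Each gene was taken with 20 kb on both sides of its span, and every deposited region that overlapped this window in any of 6 peak lists was assigned to it. The 19970 protein-coding genes of the autosomes and chromosome X were measured in the same way. CXCL8, CXCL1, CXCL3 and CXCL2 follow one another on chromosome 4, but their windows did not overlap (gaps of 85.7, 125 and 18.4 kb), nor did those of IL1A and IL1B on chromosome 2 (5.26 kb), so each gene was kept as a window of its own.

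The lists come from CUT&Tag, in which an antibody holds the transposase Tn5 at a chromatin protein or histone mark so that the DNA beside it is released and sequenced. The cells were MDA-MB-231, an established human triple-negative breast cancer line with a mesenchymal character. NONO, a paraspeckle protein that binds DNA and RNA, was profiled in NC cells (genotype WT in the labels) and in NONO knockdown cells. H3T11ph, a phosphate on threonine 11 of histone H3 for which PKM2 is a known kinase, and H3K27ac, the acetylated lysine found at active promoters and enhancers, were each profiled in NC and in PKM2 knockdown cells. The methods describe both transient transfection of siRNAs, whose control is called NC, and stable lentiviral shRNA lines, whose control is called Scr. They do not state which of these, or which target sequence, the CUT&Tag cells received. Each of the 6 groups held 1 library, so no difference between conditions has a replicate check and no p-value is given. Peak lists do not measure transcript or protein, so the knockdowns could not be checked from them.

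Inflammatory cytokine genes are kept at a low level in most cells and are switched on together by NF-kB and AP-1, which bind short sites at their promoters and at enhancers many kilobases away. Several of them, above all IL6 and CXCL8, are known to be expressed without outside stimulation in mesenchymal breast cancer lines, where NF-kB signalling runs constitutively. IL6 and LIF signal through the shared receptor chain gp130, the CXCL chemokines attract neutrophils through CXCR2, CCL2 attracts monocytes, CSF2 (GM-CSF) drives myeloid cells, and IL1A and IL1B act on the IL-1 receptor to induce the other genes.

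The promoters of the genes are shown first, because the regions of both histone marks described below fall on them or stop short of them. A RefSeq table of GRCh38.p14 held the promoter, from 250 bases before to 50 after the start, for 8 of the 10 genes and not for CCL2 and LIF. The bases before the start of IL6 and CXCL8 are given over the full 250 bases, since H3T11ph regions of PKM2-KD, and for IL6 also of NC, reached into them, as IL6 (chr7:22726950-22727199, plus strand) and CXCL8 (chr4:73740319-73740568, plus strand). Capitals mark the motifs searched on both strands, which were an NF-kB-type motif (GGNNTTTCC), an AP-1 motif (TGANTCA) and a TATA-type motif (TATAAA).
IL6: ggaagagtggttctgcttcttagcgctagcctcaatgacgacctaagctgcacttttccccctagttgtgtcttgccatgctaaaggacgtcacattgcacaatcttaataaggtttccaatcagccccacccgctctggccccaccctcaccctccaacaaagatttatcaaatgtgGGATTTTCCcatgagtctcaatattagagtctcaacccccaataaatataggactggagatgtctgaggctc
CXCL8: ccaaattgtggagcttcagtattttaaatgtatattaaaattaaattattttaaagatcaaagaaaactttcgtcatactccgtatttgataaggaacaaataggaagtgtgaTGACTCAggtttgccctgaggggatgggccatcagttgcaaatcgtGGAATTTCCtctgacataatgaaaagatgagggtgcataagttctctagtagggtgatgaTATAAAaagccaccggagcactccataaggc

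The last 130 bases before the start are given for CXCL1, CXCL2 and CXCL3, which share nearly the same promoter but not the same H3K27ac. They lie at CXCL1 (chr4:73869263-73869392, plus strand), CXCL2 (chr4:74099196-74099325, minus strand) and CXCL3 (chr4:74038690-74038819, minus strand).
CXCL1: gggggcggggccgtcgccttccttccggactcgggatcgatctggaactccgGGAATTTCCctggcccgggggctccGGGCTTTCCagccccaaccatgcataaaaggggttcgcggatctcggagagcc
CXCL2: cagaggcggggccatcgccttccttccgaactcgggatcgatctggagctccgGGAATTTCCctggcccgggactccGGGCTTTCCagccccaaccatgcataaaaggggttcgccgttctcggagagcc
CXCL3: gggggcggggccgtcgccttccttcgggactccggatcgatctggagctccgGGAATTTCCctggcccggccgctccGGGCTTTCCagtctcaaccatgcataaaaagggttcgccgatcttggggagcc

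Over these bases CXCL1 was 92.4% identical to CXCL2 and 91.5% to CXCL3, and CXCL2 was 87.8% identical to CXCL3. Over 250 bases the identities were 71.4%, 81.4% and 73.3%. The same stretch is given for CSF2 (chr5:132073659-132073788, plus strand) and IL1B (chr2:112836780-112836909, minus strand), where H3T11ph regions also reached the promoter and none of the motifs was found in the 300 bases.
CSF2: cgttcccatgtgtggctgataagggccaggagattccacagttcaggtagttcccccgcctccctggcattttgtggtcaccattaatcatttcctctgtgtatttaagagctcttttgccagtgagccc
IL1B: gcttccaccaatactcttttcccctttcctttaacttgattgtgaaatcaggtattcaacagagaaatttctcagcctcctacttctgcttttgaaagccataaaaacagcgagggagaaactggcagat

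The NF-kB-type motif was in the 300-base promoter of 5 of the 8 genes, against 6.46% of 15812 promoters in the table. It lay at -72 to -64 bp in IL6 and at -91 to -83 bp in CXCL8. CXCL1, CXCL2 and CXCL3 each held 2 copies, the nearer one at -53 to -45 bp in all of them. The AP-1 motif was in 2 of the 8 (CXCL8 and IL1A), against 5.76%, and the TATA-type motif in 2 of the 8 (CXCL8 and IL1A), against 9.64%. A match is a run of letters and not a measured site.

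The deposited lists held between 36583 and 572970 regions. They were not of 1 form. In NONO NC, 94.6% of regions were exactly as wide as the narrowest one, 269 bp, and in H3K27ac NC 79.3% were exactly 112 bp wide, against 1.19% to 2.05% in the other 4 lists, so for NONO and H3K27ac the effect of knockdown and that of the processing cannot be told apart. The fold of a region is its enrichment at the summit relative to that library's background. From the fold and the -log10 p, the summit pileup was recovered in fragments, together with the local background. The depth implied was 7.46 and 7.48 fragments per kb in H3K27ac NC and PKM2-KD, 3.35 and 3.42 in H3T11ph NC and PKM2-KD, and 3.34 and 2.84 in the NONO libraries. In H3K27ac NC the pileup had been scaled by 0.521 before the fold was taken, so folds are not compared between the H3K27ac lists and pileups are. For NONO, where the narrowest widths were 269 and 98 bp, pileups are not compared between NC and knockdown either. For H3T11ph these widths were 111 and 91 bp. Markers of the line carried H3K27ac as the label states, with a median highest pileup within 1 kb of the gene, at 6 mesenchymal markers (VIM, CD44, CAV1, AXL, EGFR and TGFBI) of 160 in NC and 236 in PKM2-KD, against medians over all genes, also within 1 kb, of 23 and 20. For 6 luminal markers the medians were 27.5 and 16.0, with GATA3 the highest at 166 and 129. For 4 immune markers they were 21.5 and 10, although PTPRC stood at 420 and 239. In the wider windows with 20 kb on both sides the medians were 31.5 and 23 for the luminal markers. For the immune markers they were 31 and 41.5, the opposite direction to that within 1 kb.

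**Figure D1:**
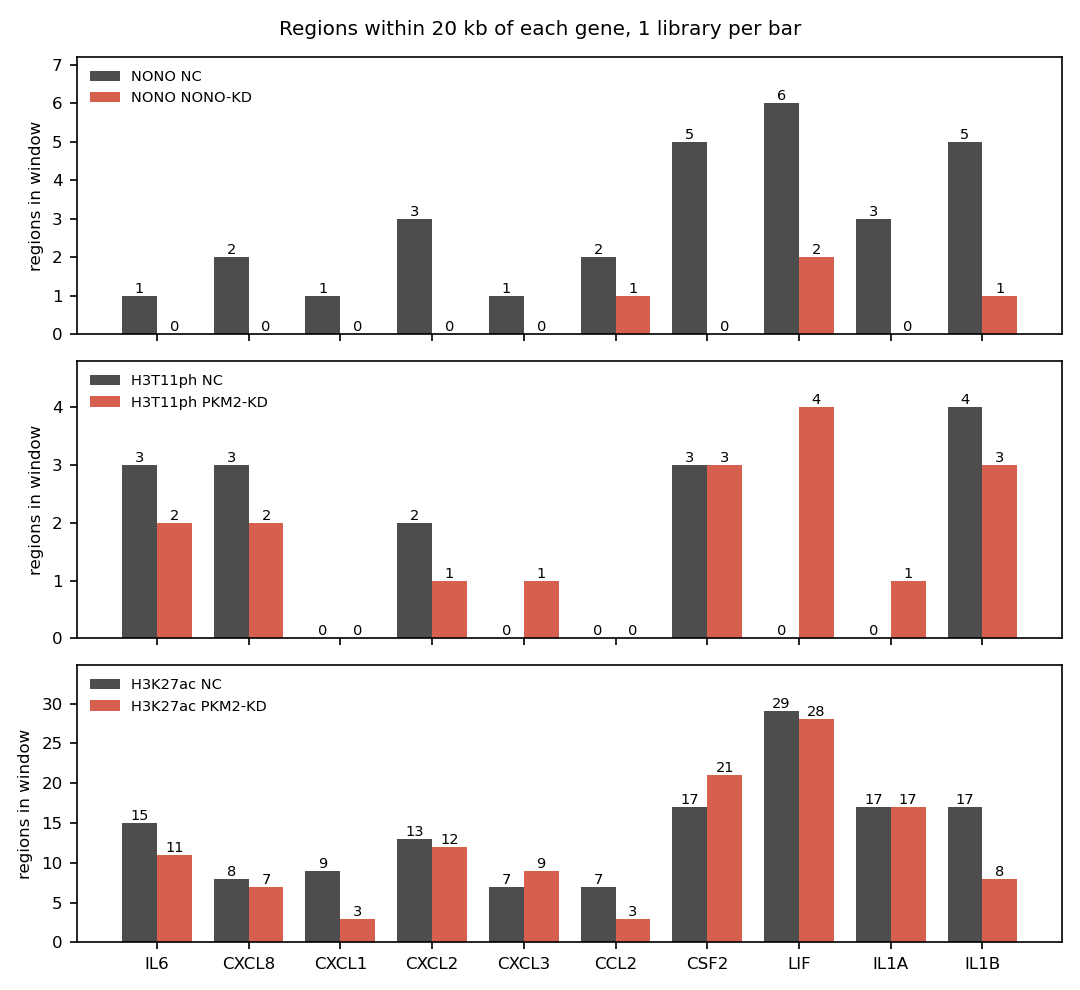
Number of deposited regions in the window of each gene (vertical axis) for NONO, H3T11ph and H3K27ac, with NC in grey and the knockdown in red, 1 library per bar. NONO bars are shorter in the knockdown at all 10 genes, whereas H3T11ph bars are shorter at 4, equal at 3 and taller at 3.

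The first comparison asked where NONO lay at these genes and whether its knockdown removed the regions. NONO NC had at least 1 region in all 10 windows, against 90.4% of all protein-coding genes. After knockdown 3 of the 10 windows held one, against 69.8%. All 10 genes are short, and longer genes have wider windows. Among genes with a span of at most 20 kb the shares were 85.2% in NC and 59.7% in NONO-KD. The shares of windows that lost or gained regions, given below, were not computed for short genes. The number of regions was 29 in NC and 4 in NONO-KD, which is 13.8% of NC (95% interval from exact binomial bounds 3.52 to 39.3, counting error only), whereas the whole NONO-KD list held 49.6% of the number in its NC list. The whole lists also hold regions outside gene windows. Per 100 kb of window the 10 genes had 6.56 NONO regions in NC and 0.904 in NONO-KD, against 4.27 and 1.68 over all gene windows. Counts were lower in the knockdown at 10 of 10 genes, against 73.4% of all genes. A region in NC and none in the knockdown was found at 7 of the 10, against 24.9% of all genes, and the opposite at 0 of 10, against 4.22%. None of the 29 NC regions was overlapped by a knockdown region (95% Wilson interval 0 to 11.7%), and over all gene windows 1.90% were. With 50 kb on both sides of the genes in place of 20 kb, 8 of the 10 windows held a NONO-KD region.

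All 29 NONO NC regions had exactly the width of 269 bp. Their folds ran from 3.65 to 143, with a median of 36.3 against 23.7 over the whole list, while the median over genes of the highest pileup was 134 at the 10 genes and 138 over all genes. Most of the regions lay away from the gene spans, with 5 of the 29 within 1 kb of one. None overlapped any of the 8 promoters, in either library, against 9.58% of 15811 promoters with NC and 2.87% with NONO-KD regions. At shares this low, 0 of 8 does not set these promoters apart from the others. In NC 4 of the 10 genes had a region within 1 kb of the span, against 68.0% of all genes, a share that also depends on the length of each gene. These 4 were CXCL3, CCL2, LIF and IL1B.

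IL1B, the secreted form of IL-1 that requires cleavage, had 5 NONO regions in NC. The strongest of all 29 was among them, with a fold of 143 and a pileup of 270 at -1221 bp from its start (chr2:112837866-112838134). It overlapped an H3K27ac region in NC. A second one inside the gene reached a fold of 74.5 and a pileup of 184 (chr2:112830434-112830702). In NONO-KD 1 region was left in the window, at another place, with a fold of 4.69 and a pileup of 5.

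LIF, a gp130 cytokine that holds stem cells undifferentiated, had the largest number of NONO regions of the 10 genes, with 6 in NC. Their folds ran from 7.90 to 73.7. The 2 NONO-KD regions in its window had folds of 16.6 and 43.0 and lay 17515 and 24859 bp from the lower-coordinate end of the gene, beyond all the NC regions, the second of them inside OSM, another gp130 cytokine. CSF2 had 5 NONO regions in NC and 0 in NONO-KD. All 5 lay between 12001 and 21286 bp downstream of its start, the strongest with a fold of 68.7 and a pileup of 211.

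The remaining genes had between 1 and 3 NONO regions in NC. CCL2 had 2, with folds of 61.6 at -712 bp from the lower-coordinate end of the gene and 68.4 inside CCL7, a chemokine gene of the same cluster. Its 1 NONO-KD region crossed the outer edge of the window. CXCL8 had 1 NONO region at -2941 bp with a fold of 49.8 and 1 at -12797 bp with a fold of 8.42. IL6 had a single region at -15056 bp with a fold of 32.6. CXCL2 had 3, of which the one at -10979 bp had a pileup of 164, and IL1A had 3, the strongest at -9203 bp with a fold of 51.6. CXCL1 had 1 at -12880 bp, and CXCL3 had 1 inside the gene at 349 bp from the start with a fold of 22.2. All windows except those of CCL2, LIF and IL1B held 0 regions in NONO-KD.

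**Figure D2:**
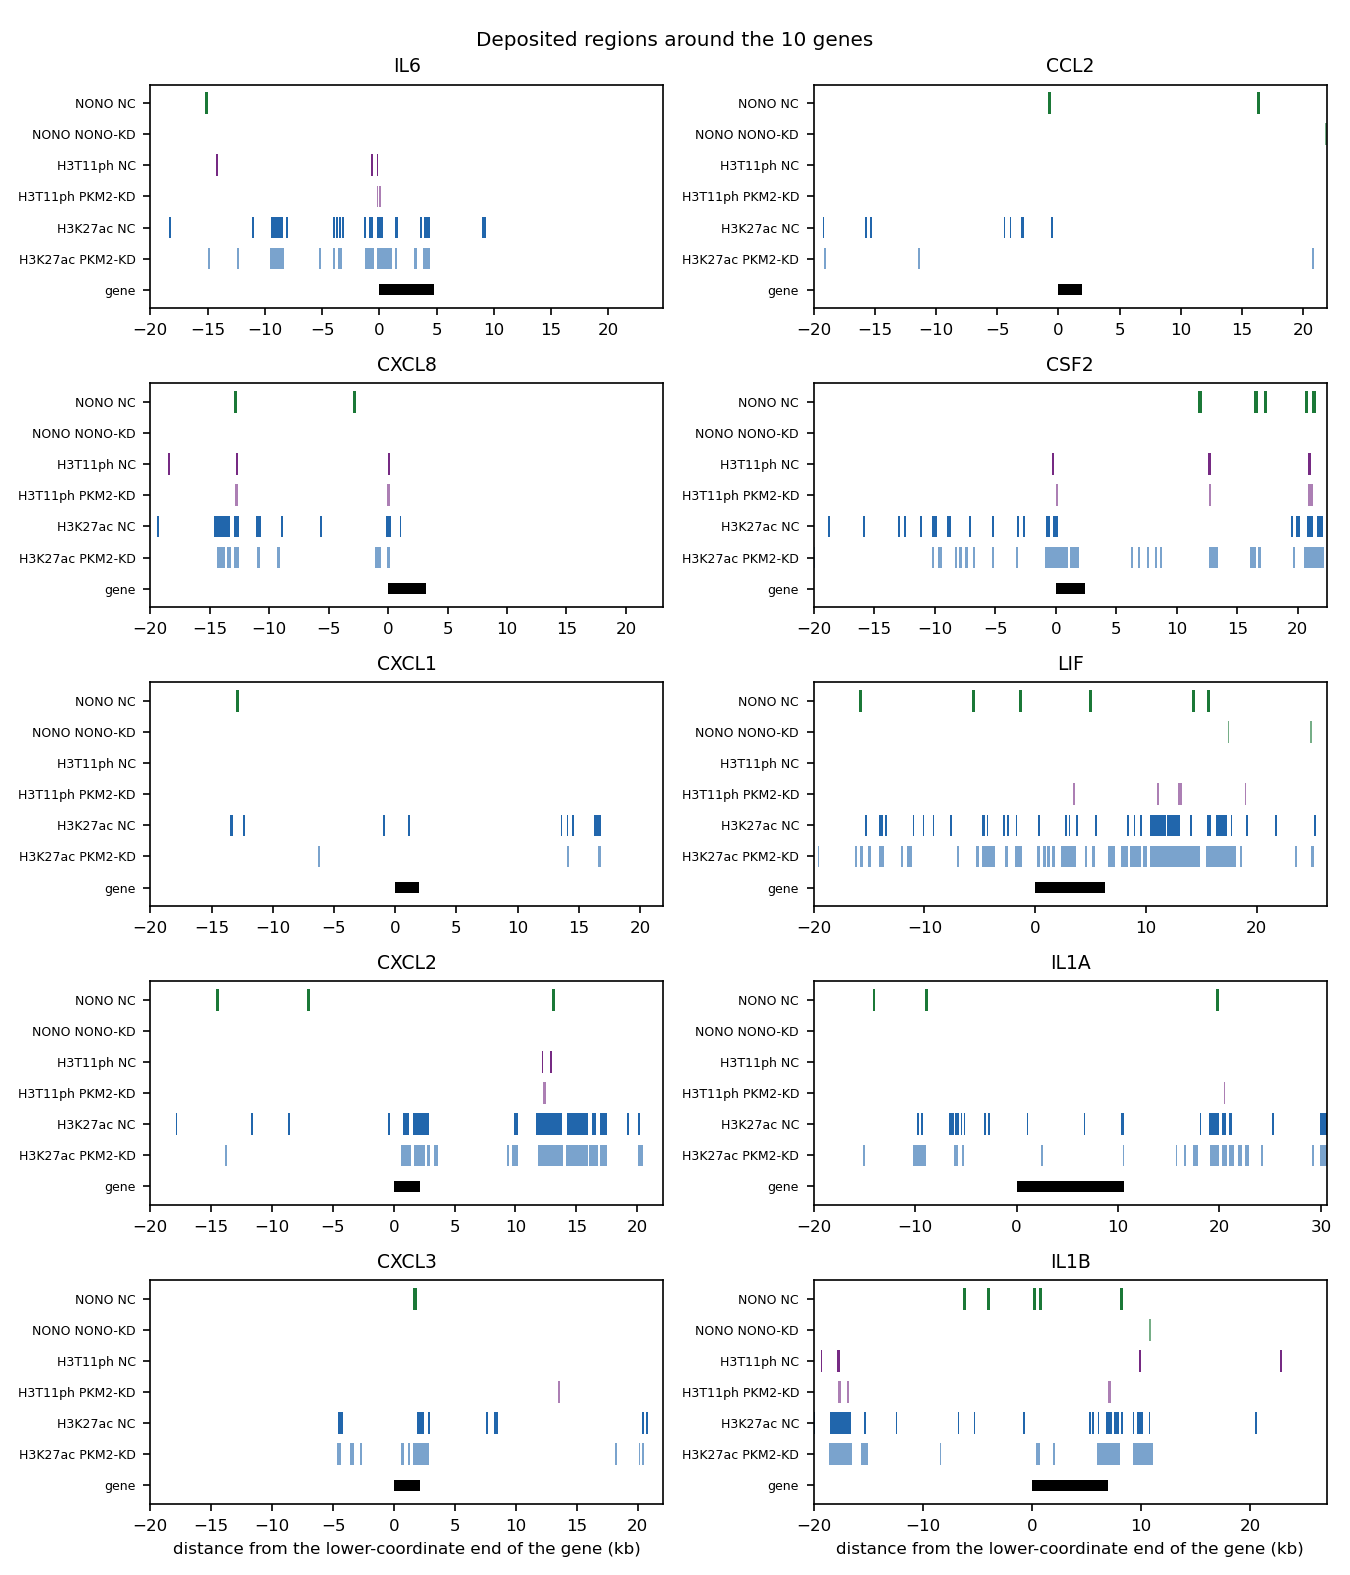
Deposited regions in the window of each gene, 1 row per list, drawn by distance from the lower-coordinate end of the gene in kb, with regions under 0.15 kb widened to that size and the gene span in black. The longest H3K27ac regions of CXCL2 (2167 bp in NC) and LIF (4537 bp in PKM2-KD) lie away from the gene body, and the NONO rows (29 regions in NC, 4 in NONO-KD) hold no shared position.

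The second comparison asked whether knockdown of PKM2 lowered H3T11ph at these genes. The total number of regions was not lower, but directions were mixed by gene. Counts were lower in PKM2-KD at 4 genes (IL6, CXCL8, CXCL2 and IL1B), equal at 3 and higher at 3. Over all genes 39.8% were lower and 31.4% higher. The largest rise was at LIF, from 0 to 4 regions, and the total depends on it. The total was 15 in NC and 17 in PKM2-KD, which is 113% of NC (53.2 to 244), against 85.7% for the whole list. Per 100 kb of window there were 3.39 and 3.84 regions, against 1.82 and 1.63 over all gene windows. At least 1 region was found at 5 of the 10 genes in NC, against 73.2% of all genes, and at 8 in PKM2-KD, against 69.6%. For genes with a span of at most 20 kb these shares were 64.3% and 59.5%. No gene had a region in NC and none in the knockdown, against 17.6% of all genes, and 3 (CXCL3, LIF and IL1A) had one in PKM2-KD only, against 13.9%. CXCL1 and CCL2 had 0 regions in both libraries. Of wide regions, with a width of 2 or more times the list's narrowest, NC held 2 of 15 and PKM2-KD 8 of 17. Over the whole lists 9.53% and 8.17% were wide. The narrowest widths were 111 bp in NC and 91 bp in PKM2-KD, so the cutoff was lower in PKM2-KD. NC regions of 200 bp at CXCL8 and 190 bp at CSF2 missed the NC cutoff but would have passed that of PKM2-KD.

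The same places were found again more often than over all genes. Of the 15 NC regions, 7 were overlapped by a PKM2-KD region (46.7%, Wilson interval 24.8 to 69.9), against 6.19% over all gene windows. The other 8 NC regions were not found again, and 10 of the PKM2-KD regions were not in NC. The 7 shared sites belonged to 5 genes. In NC 6 of them overlapped an H3K27ac region of the same cells, and in PKM2-KD all 7 did. The pileup was higher in PKM2-KD at 5 of the 7 and lower at 2. The lists had a similar implied depth per kb, but each site has 1 value per condition. The commonest background was 0.372 fragments in NC and 0.311 in PKM2-KD, at narrowest widths of 111 and 91 bp. Equal enrichment would therefore give a somewhat lower pileup in PKM2-KD. Of the 2 lower sites, the one upstream of CXCL8 (72 and 66) differed by no more than this.

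The IL6 promoter was the site with the largest fall. Its H3T11ph region at chr7:22726972-22727091 had a summit at -215 bp, with a pileup of 53 in NC and 18 in PKM2-KD (a ratio of 0.340) and folds of 39.4 and 14.5. The summit in PKM2-KD was at -221 bp. NC held a further region at -583 bp with a pileup of 64, where PKM2-KD had none, and PKM2-KD held one at 73 bp from the start with a pileup of 16. A further NC region at -14207 bp (pileup 25) was not found again. H3T11ph was thus lower at the promoter of IL6 in this pair of libraries, and H3K27ac there was not, as given below.

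CXCL8, the neutrophil chemokine interleukin-8, had 2 of the 7 sites. At the promoter the H3T11ph pileup was 24 in NC and 72 in PKM2-KD, a ratio of 3.0, and the folds were 2.85 and 42.4. The summit lay at 108 bp in NC and at -24 bp in PKM2-KD, which is just after the TATA-type motif of the sequence above. The local background in NC was 20.9 times the commonest value of the list, against 2.32 times in PKM2-KD, and its part in the difference was not tested. The other site, at -12.7 kb (chr4:73727757-73727956), had pileups of 72 and 66 and folds of 51.0 and 51.1, which makes it the closest match between the libraries. It was also the 1 shared site whose H3T11ph NC region overlapped a NONO NC region, and both H3K27ac lists held a region there.

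CSF2 had 2 of the sites, both downstream. At 21.1 kb from its start (chr5:132094655-132094844 in NC) the pileup was 27 in NC and 142 in PKM2-KD, a ratio of 5.26 and the largest of the 7. The fold was 9.45 and 55.9, and the local background 5.28 and 5.02 times the commonest. The longer PKM2-KD region here overlapped a NONO NC region, and the NC one did not. At 12.8 kb the pileups were 75 and 91, but the local background there was 61.4 and 52.2 times the commonest and the folds only 3.19 and 5.33. At the CSF2 promoter H3T11ph had a region in each library that did not overlap the other, at -228 bp with a pileup of 16 in NC and at 21 bp with a pileup of 23 in PKM2-KD.

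The last 2 sites were distal to CXCL2 and IL1B. At -10.1 kb from the CXCL2 start the pileups were 37 and 67. At 24.8 kb from the IL1B start, beyond the far end of the gene, they were 51 and 70. At the IL1B start itself, H3T11ph had no region in NC and one in PKM2-KD with a summit at 25 bp, a fold of 20.6 and a pileup of 26. NC in turn held a region at -2856 bp that was not found again, with a fold of 11.6. Its pileup of 116 was the highest of H3T11ph NC in these windows, with a local background 24.3 times the commonest. Also not found again were NC regions at IL1B with pileups of 28 and 10, at CXCL8 (-18477 bp, pileup 41) and at CXCL2 (-10756 bp, pileup 31). Over the 8 promoters, H3T11ph overlapped 3 in NC (IL6, CXCL8 and CSF2), against 8.58% of all promoters, and 4 in PKM2-KD (these and IL1B), against 9.18%. Among the genes with H3T11ph in PKM2-KD only, LIF had 4 regions with pileups from 4 to 47, CXCL3 had 1 at -11422 bp with a pileup of 60, and IL1A had 1 at -9892 bp with a pileup of 66.

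**Figure D3:**
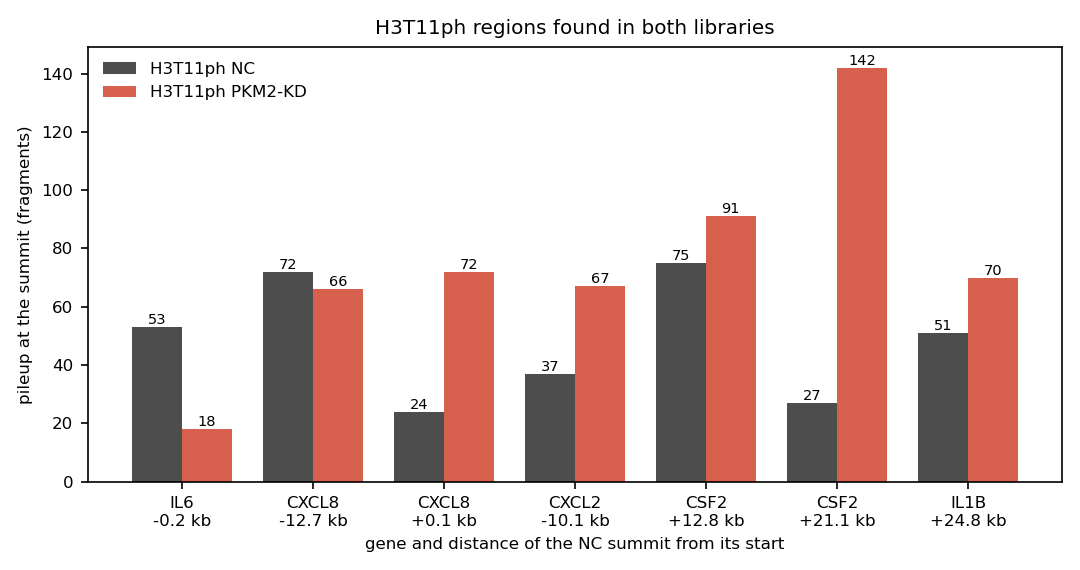
H3T11ph pileup at the summit in fragments (vertical axis) at the 7 sites found in both libraries, named by gene and by the distance of the NC summit from its start in kb, with NC in grey and PKM2-KD in red. The bars are lower in PKM2-KD at IL6 (53 and 18) and slightly at the upstream CXCL8 site (72 and 66), and higher at the other 5.

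The third comparison asked how H3K27ac at these genes stood in NC cells and after PKM2 knockdown. The 10 genes carried much of it. Regions covered a median of 9.27% of their windows in NC, against 3.64% over all genes, and 12.6% in PKM2-KD, against 2.59%. The median of the highest pileup in the window was 67.0 and 127, against 30 and 31 over all genes. Nearly every gene window holds H3K27ac in these lists (99.3% in NC and 96.2% in PKM2-KD), and all 10 did in both, so that presence alone says little and the covered length and pileup are described.

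The number of H3K27ac regions was 139 in NC and 119 in PKM2-KD, 85.6% of NC (66.5 to 110), against 37.1% for the whole lists. Per 100 kb of window there were 31.4 regions in NC and 26.9 in PKM2-KD, against 23.2 and 10.1 over all gene windows. Of the 139 NC regions 69 had the narrowest width. The direction of the count turned under other settings. At a -log10 q of at least 5 the count in PKM2-KD was 128% of NC, and with both lists cut to equal length 145%. Of the NC regions 71 (51.1%, 42.9 to 59.2) were overlapped by a PKM2-KD region, against 15.4% over all gene windows.

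Covered length was higher in PKM2-KD at 7 of the 10 genes and lower at 3 (CXCL8, CXCL1 and CCL2), with a median ratio of 1.35, against 0.763 over all genes, of which 31.0% were higher. The highest pileup was higher at 8 and lower at 2 (CXCL1 and CCL2), with a median ratio of 1.63 against 0.967, and 44.6% of all genes were higher. A change of at least 2-fold in covered length was found upward at CSF2 and LIF, against 4.17% of all genes, and downward at CXCL1 and CCL2, against 29.7%. In pileup it was found upward at CXCL8, against 5.42%, and downward at CCL2, against 14.1%. With 50 kb on both sides no gene was 2-fold higher in covered length, and with both lists cut to equal length none was 2-fold lower.

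LIF had the greatest covered length of H3K27ac in PKM2-KD and the second greatest, after CXCL2, in NC. Regions covered 7199 bp in NC and 17663 bp in PKM2-KD, a ratio of 2.45, or 15.5% and 38.1% of the window, and 99.9% of all genes had a lower share in PKM2-KD. The highest pileup was 108 in NC and 178 in PKM2-KD, but at different places, 17300 and 12408 bp from the lower-coordinate end of the gene. At the NC place the PKM2-KD region had a pileup of 116. Its local background was 47.5 times the commonest, against 6.69 times in NC. That PKM2-KD region, 2655 bp long, is part of the covered length. The tallest PKM2-KD region, 4537 bp long (chr22:30250831-30255367), lay between LIF and OSM. OSM therefore counted the same regions, with 14.3% and 27.7% of its own window covered.

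CSF2 followed, with 4008 bp covered in NC and 8133 bp in PKM2-KD, a ratio of 2.03, and highest pileups of 44 and 80. Its tallest H3K27ac in both libraries lay about 21 kb downstream (chr5:132094276-132095939 in PKM2-KD). The pileup ratio of H3K27ac there was 1.82, and its local background was 5.15 and 10.2 times the commonest. At the same place the H3T11ph pileup had the ratio of 5.26 given above. Within 1 kb of the gene the covered length was 652 bp in NC and 2627 bp in PKM2-KD, while the pileups there were 22 and 28, so the regions were longer rather than taller.

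IL6 had 4093 bp covered in NC and 5276 bp in PKM2-KD (a ratio of 1.29). The H3K27ac pileup at its promoter was 48 in NC and 89 in PKM2-KD, with summits at 217 and 194 bp, next to the H3T11ph region that was lower in the knockdown. A second block, at -8552 bp in NC and -8651 bp in PKM2-KD, had pileups of 55 and 73. In this window the H3T11ph and H3K27ac summits at the start thus differed in opposite directions between the libraries.

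IL1A and IL1B, the IL-1 pair, had ratios of covered length of 1.42 and 1.43. For IL1A the tallest region was at the same place in both libraries, at -9858 bp with a pileup of 135 in NC and -9854 bp with 165 in PKM2-KD. Around it lay a NONO NC region at -9203 bp and the H3T11ph region of PKM2-KD. Within 1 kb of IL1A the pileup was 31 in NC and 15 in PKM2-KD, so that the values near the gene and at the distal region differed in opposite directions. For IL1B the tallest region was 24856 bp from the start in NC with a pileup of 102 and 24893 bp in PKM2-KD with 168, on the shared H3T11ph site, and within 1 kb of the gene the pileups were 40 and 41.

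The chemokine genes of chromosome 4 were unlike one another. CXCL2 had 7627 and 8593 bp covered and the highest pileup of all 10 genes, 376 in NC and 380 in PKM2-KD, in a region at -10877 bp (chr4:74108740-74110906 in NC). This block lies toward MTHFD2L, a folate enzyme gene, and NONO NC and both H3T11ph libraries had regions within it. Its local background was 18.4 and 20.4 times the commonest value. At the CXCL2 promoter the pileups were 69 in NC and 52 in PKM2-KD, with a local background of 1.00 and 4.63 times the commonest. CXCL3 had 1824 and 2853 bp covered, and its promoter pileup was 42 and 88, with a local background of 3.86 and 15.8 times the commonest.

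CXCL1, whose promoter bases are nearly those of CXCL2 and CXCL3, had no H3K27ac region on its promoter in either library. Regions covered 1469 bp of its window in NC and 505 bp in PKM2-KD, a ratio of 0.344. The tallest, at 16622 bp from the start, had a pileup of 62 in NC, and its counterpart in PKM2-KD at 16697 bp had 39. Within 1 kb of the gene the highest pileup was 10 in NC and no region was listed in PKM2-KD. Because CXCL1, CXCL2 and CXCL3 are close copies of one another, reads can be shared or lost between them, and how the authors treated such reads is not given in the sources used here.

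CXCL8 had 3083 bp covered in NC and 2805 bp in PKM2-KD, a ratio of 0.910, but its highest pileup was 72 in NC and 168 in PKM2-KD, a ratio of 2.33. Both values come from 1 place about 14.4 kb upstream, at -14370 bp in NC and -14365 bp in PKM2-KD (chr4:73726139-73726864). At the promoter the pileups were 33 and 48, with a local background of 2.32 and 10.2 times the commonest. CCL2 was the gene with the least H3K27ac of the 10. Regions covered 931 and 434 bp, the highest pileups were 21 and 10, and within 1 kb of the gene 1 region was listed in NC with a pileup of 6 and none in PKM2-KD.

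**Figure D4:**
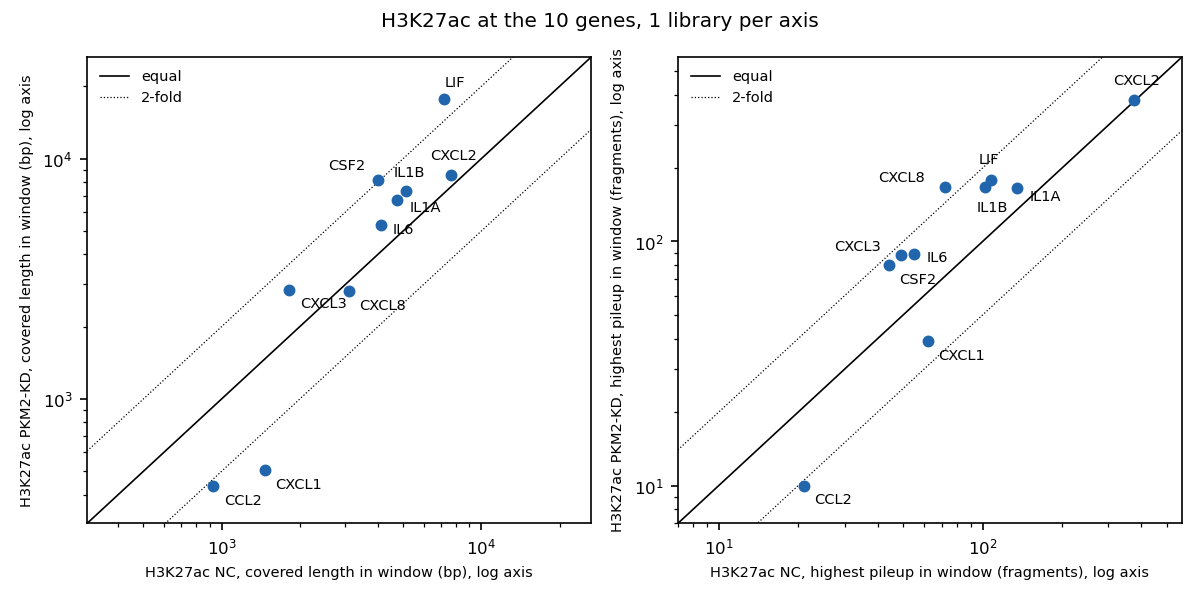
H3K27ac covered length in bp (left) and highest pileup in fragments (right) in the window of each gene, with NC on the horizontal and PKM2-KD on the vertical axis, both on log axes. The solid line marks equal values and the dotted lines a 2-fold difference, and CCL2 and CXCL1 are below the solid line in both panels.

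Over the 8 promoters, H3K27ac overlapped 7 in NC, against 39.9% of all promoters, and 7 in PKM2-KD, against 44.3%, CXCL1 being the exception in both. The order of covered share in NC ran from CXCL2 (18.1%) and LIF (15.5%) through IL1B (10.9%), CSF2 (9.46%), IL1A (9.41%), IL6 (9.14%) and CXCL8 (7.15%) to CXCL3 (4.33%), CXCL1 (3.50%) and CCL2 (2.22%). In PKM2-KD LIF (38.1%) stood first and CXCL1 (1.2%) and CCL2 (1.04%) last. With 1 library per group, neighbours in these orders cannot be separated. Beside all genes, CXCL2 and LIF were above 99.4% and 99.0% of genes in NC, whereas CCL2 was above 21.7% and CXCL1 above 47.7%.

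**Figure D5:**
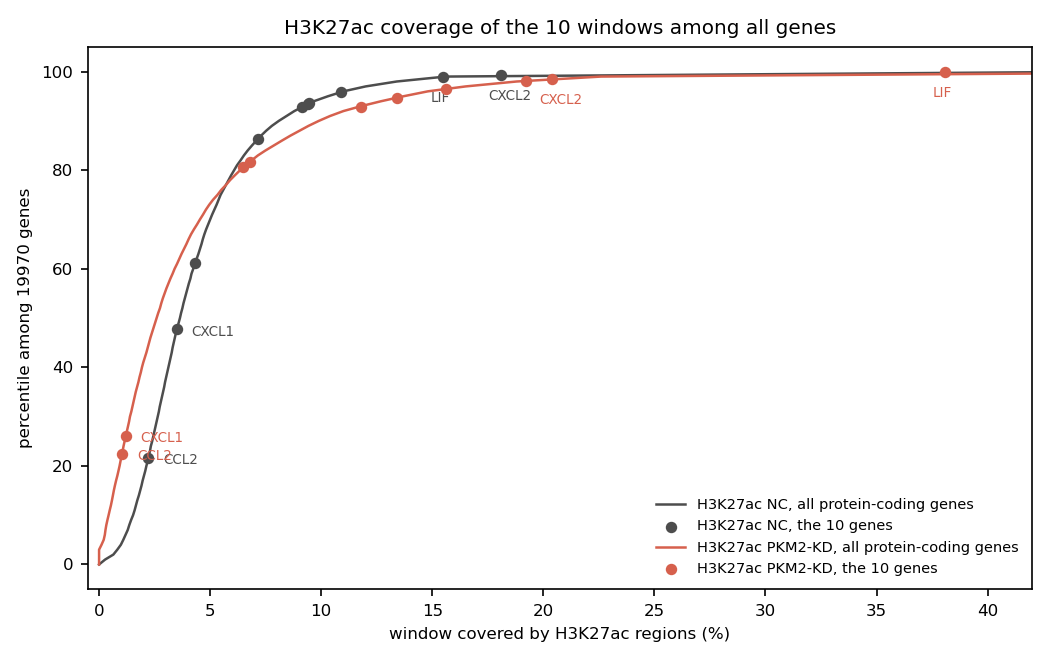
Share of each window covered by H3K27ac regions in percent (horizontal axis) against the percentile among the 19970 protein-coding genes (vertical axis), with lines for all genes and points for the 10 genes, NC in grey and PKM2-KD in red. CXCL2 and LIF lie near the top in both libraries, and CXCL1 and CCL2 fall below the middle.

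The 3 targets overlapped at a few places. In NC cells 2 of the 29 NONO regions (6.90%) overlapped an H3T11ph region, against 2.99% over all gene windows, and 7 (24.1%, Wilson interval 12.2 to 42.1) overlapped an H3K27ac region, against 18.8%. Both NONO regions with H3T11ph lay far upstream, at CXCL8 (-12797 bp) and CXCL2 (-10979 bp), and both also overlapped H3K27ac. Of the 15 H3T11ph NC regions 10 overlapped H3K27ac (66.7%, 41.7 to 84.8), against 22.1%, and in PKM2-KD 15 of 17 did (88.2%, 65.7 to 96.7), against 28.1%.

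Related genes were measured in the same windows for comparison. Over all genes, covered length was at least 2-fold higher in PKM2-KD at 4.17% and at least 2-fold lower at 29.7%. The counts of every list below are to be read beside these shares. Neighbouring genes of a list can also count the same regions. CXCL5, PF4 and PPBP, for example, all had highest pileups of 14 in NC and 18 in PKM2-KD. Of 12 other CXC chemokine genes, regions of H3K27ac covered a median of 2.22% in NC and 0.818% in PKM2-KD, with 0 at least 2-fold higher and 7 lower. For 11 other CC chemokine genes the medians were 1.87% and 1.31%, with 0 higher and 4 lower. CCL20, a chemokine for CCR6-bearing lymphocytes, had the largest share of that list, 6.92% and 7.15%. For 11 T cell cytokine genes such as IL2 and IFNG, the medians were 2.88% and 1.37%, with 0 higher and 5 lower. The medians of these chemokine and T cell lists were therefore below those over all genes of 3.64% and 2.59%, and those of the 10 genes above them.

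The 14 other genes of the IL-6, colony-stimulating factor and IL-1 families had medians of 6.25% and 6.88%, with 2 at least 2-fold higher and 4 lower. The 2 higher, named after their values were seen, were CSF1 (2.43% and 10.8%) and CSF3 (12% and 26.0%), both colony-stimulating factors like CSF2. The 4 lower were IL18, IL36A, IL36B and IL36G, all IL-1 family members. For 20 genes of NF-kB and its upstream signalling the medians were 6.45% and 8.58%, with 2 higher, RELA (7.13% and 16.0%) and the inhibitor gene NFKBIE (6.80% and 21.0%), and 1 lower, REL (3.0% and 1.22%). The highest pileups in NC and PKM2-KD differed less, with 27 and 32 at RELA, 123 and 111 at NFKBIE, and 33 and 31 at REL. For 10 receptor genes of the cytokines they were 3.11% and 2.27%, with 0 higher and 4 lower. IL6ST, which encodes gp130, had 6.99% and 6.53%, and CXCR2, the receptor of the CXCL chemokines, 1.29% in NC and no region in PKM2-KD.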

How the data were processed

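CUT&Tag peak lists of 6 libraries, 1 per group, were analysed, and groups were taken from the sample titles. Per the labels, the authors' processing named FastQC 0.11.9, cutadapt 1.18, SAMtools 1.3.1, MACS2 2.1.1.20160309 and hg38. The aligner, control and duplicate handling are not given in the sources used here. In each deposited list the score follows from −log10 q, the fold is the enrichment ratio at the summit over the background, both the p and the q stand on a −log10 scale, and a further column gives the summit position. The authors called each list on its own library. DNA was measured, so no values are expression.

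Regions were assigned by an overlap of at least 1 bp to gene spans of RefSeq GRCh38.p14 plus 20 kb, matched by symbol for all 10 genes. Covered length, highest fold and highest pileup were computed per window. A pileup was the whole number of fragments whose Poisson tail lay within 0.002 of the deposited −log10 p (99.75% to 100.0% of rows), and for other rows the nearest number was kept. Depth was the most frequent background over the smallest region width, which assumes that this width is the fragment length. Shares have 95% Wilson intervals and ratios of counts exact binomial ones, for counting error only. The functions were tested on simulated data. Python 3.11.15, numpy 2.4.6, pandas 2.3.3 and scipy 1.17.1 were used. No test between conditions was made. All 10 genes, the genes in their windows and the lists of related genes are named by rule. The genes and lists were chosen with earlier results of these data known. Alternatives were windows of 5 and 50 kb, a −log10 q of at least 5, wide regions, equal list lengths, merging within 500 bp, an overlap of 50%, summit position and a background of short genes, and, chosen after seeing the data, the gene span plus 1 kb.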

Additional observations from a re-analysis of the deposited data

How the results depend on the processing

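Of 115 alternative values of the counts, shares and medians, over 9 settings, 91 stayed within their error or within 1.5 times the main count and 24 moved. None was scored as reversing a called value, but this does not show that directions were kept. Among the region counts, only that of NONO had an interval that excluded equality with NC. The H3K27ac count turned from 85.6% of NC to 128%, 144% and 145%, and was scored only as moved. The values that moved follow, and their causes were not tested. Wide regions were those with a width of 2 or more times the list's narrowest. With these alone the H3T11ph knockdown count was 400% of NC, at a cutoff that was lower in PKM2-KD than in NC. The H3K27ac count was 144% and the share of H3K27ac NC regions found again 79.2%. Windows with a wide region numbered 0 for NONO in both lists, 2 for H3T11ph in NC and 5 after knockdown. At a −log10 q of at least 5 the H3K27ac count was 128% of NC, the share found again 64.2% and the median covered percent in NC 6.11. With equal list lengths the H3K27ac count was 145%, the share found again 63.4% and 0 genes were 2-fold lower. With 5 kb on both sides the share found again was 62.1%, windows with a region numbered 5 in NONO NC, 1 in NONO-KD and 5 in H3T11ph PKM2-KD, and the H3K27ac median in PKM2-KD was 19.9%. With 50 kb the share was 39.3%, windows numbered 8 in NONO-KD and 8 in H3T11ph NC, 0 genes were 2-fold higher and the median in PKM2-KD was 7.26%. With regions merged, 1 gene was 2-fold higher. By gene, the H3K27ac ratios of covered length and of highest pileup took opposite directions at CXCL8 alone of the 10 genes (0.910 and 2.33). The NONO count stayed between 10.3% and 30.2% of NC where it could be computed, and with wide regions it could not, since NONO NC had none in the windows.

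No paired analysis was possible because there was 1 library per group and no replicate numbers are shared. Leaving out a replicate was not possible for the same reason. Pileup and covered length grow with depth, which was close within the H3K27ac and H3T11ph pairs and lower in NONO-KD than in NONO NC.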
